A study of Mus musculus with 12 samples.

Results

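Glycolysis splits glucose into pyruvate in the cytosol, glycogen is the stored form of glucose, and the pyruvate dehydrogenase complex commits pyruvate to oxidation in mitochondria. The adult heart burns mainly fatty acids, and glucose, glycogen and lactate are its other fuels. Here 35 mouse genes of glucose uptake, glycolysis, lactate, glycogen and pyruvate entry were chosen by name, and all 35 were found among the 40594 genes of the count table. All 35 passed the filter on low counts that left 15494 genes, and the lowest count of any of them in a library was 26. The RNA-seq libraries were made from adult mouse hearts labelled either control or Wnt LOF, a loss of function in the Wnt signalling pathway, with left (LV) and right (RV) ventricles taken apart. There were 3 libraries in each of the 4 groups (control LV, control RV, Wnt LOF LV and Wnt LOF RV), 12 in all. The labels name no targeted gene, allele, Cre driver, strain or sex, and do not say whether each library stands for another animal. The p-values therefore measure the spread between these libraries.

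Total counts per library ran from 13274922 to 19173391. The 11 markers of ventricular muscle cells summed to between 161198 and 184217 CPM (counts scaled to library size with TMM factors), and of the 10 skeletal muscle markers Myh1, Myh2, Myh4, Tnnt3, Mylpf, Pvalb and Actn3 were at or near 0 and Tnni2 had 0.474 to 1.57 CPM. The other 2 are also made by heart muscle, and Acta1 had 37.2 to 506 CPM and Ckm 1468 to 2474 CPM. Ctnnb1, which encodes beta-catenin of the Wnt pathway, had 352 to 532 CPM in the Wnt LOF libraries and 426 to 598 CPM in the controls, with overlapping ranges. Some libraries went against their labels in the level of Wif1. Wif1, a secreted Wnt inhibitor, had 2.62 to 3.18 CPM in control LV and 11.99 to 18.4 CPM in control RV, but 13.5 CPM in the library labelled Wnt LOF LV 1 and 2.55 CPM in the library labelled Wnt LOF RV 1. The other Wnt LOF libraries had 1.63 to 1.65 CPM in the LV and 13.2 to 14.2 CPM in the RV. Kcnd2, a potassium channel gene, had 31.2 to 44.8 CPM in control LV and 83.3 to 95.8 in control RV. It had 91.2 CPM in Wnt LOF LV 1, but 54.2 in Wnt LOF RV 1, between these ranges. The other Wnt LOF libraries had 27.8 to 43.1 CPM of it in the LV and 59.5 to 109 in the RV. The labels of this pair are thus in doubt, and an exchange was not tested. Control LV 2 is also in doubt, since its deviations from its group mean correlated at 0.321 with those of Wnt LOF LV 1 and at 0.290 with those of control RV 2, over the genes tested. This ground is weaker, since control RV 3 and Wnt LOF RV 3, not in doubt here, correlated at 0.306. Control LV 2 also had 2.69 CPM of Wif1, as low as the other control LV libraries. The Y-linked gene Ddx3y exceeded 1 CPM only in the library numbered 3 of each group. Values below are given in the order of the replicate numbers 1, 2 and 3, and the counts, medians and main values that use the doubted libraries are also given without them.

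The genes were read as levels per kilobase, in TMM-scaled CPM divided by the length of the longest protein-coding transcript. Aldoa, the muscle aldolase, had the highest mean with 1368 CPM per kb. It was followed by Eno3, the muscle enolase, with 935, by Pygm, the muscle glycogen phosphorylase, with 539, and by Ldhb, the heart-type lactate dehydrogenase subunit, with 438. The muscle phosphoglycerate mutase Pgam2 had 413, the muscle phosphofructokinase Pfkm had 398 and pyruvate kinase Pkm had 383 CPM per kb. At the low end were Pgk1 (phosphoglycerate kinase) with 5.72, Pfkfb3 with 3.12, Pgam1 with 1.63 and Pdk3 with 1.24 CPM per kb. In every library the muscle forms Pfkm, Pgam2 and Eno3 stood above Pfkl and Pfkp, Pgam1 and Eno1 in level per kb.

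**Figure D1:**
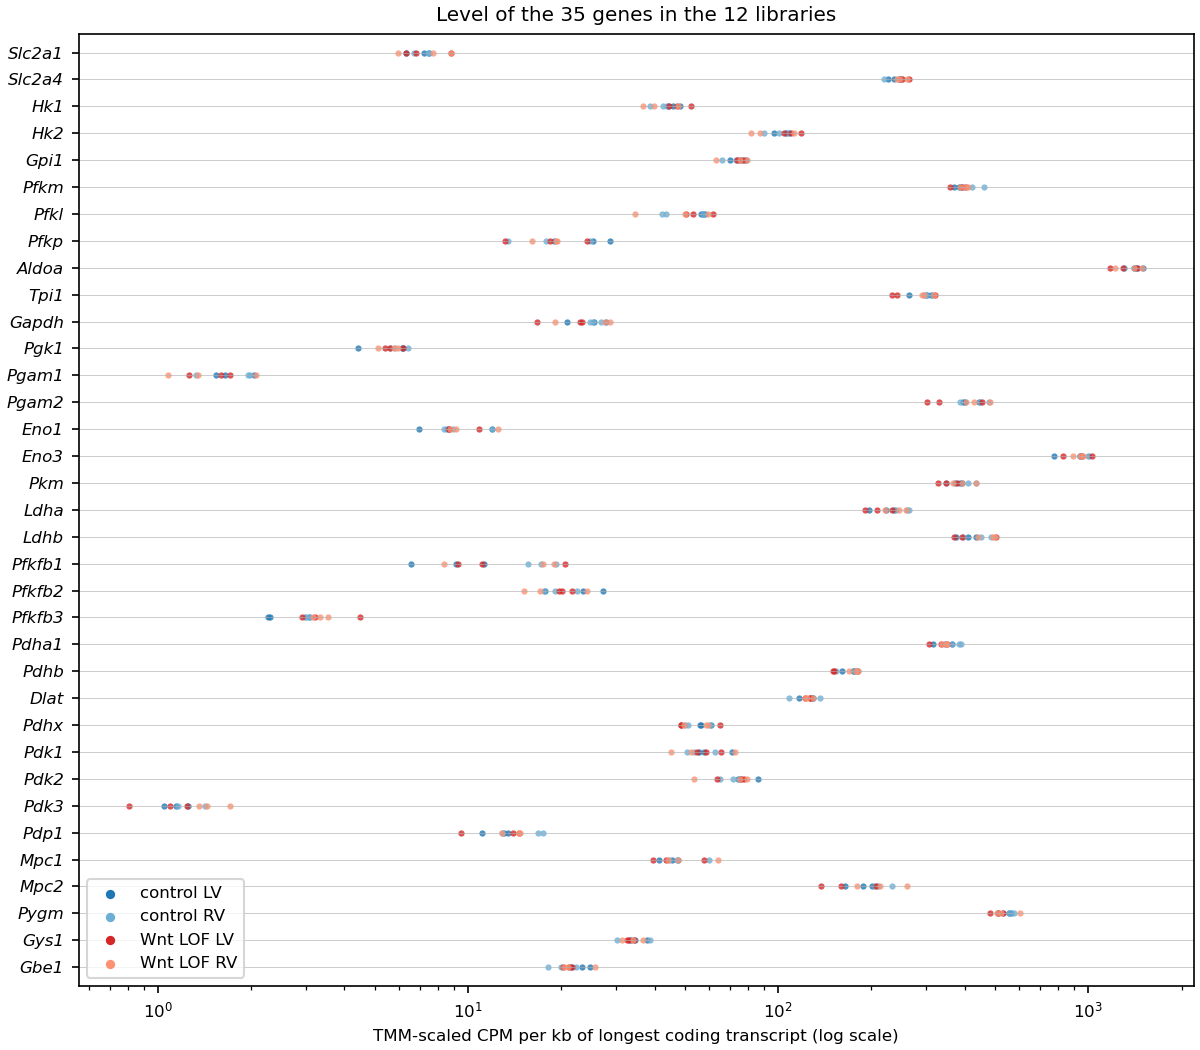
Level of the 35 genes in each of the 12 libraries, in TMM-scaled CPM per kb of the longest coding transcript on a log axis, with colours for the 4 groups. The points of a gene lie close together compared with the distance between genes, and Pfkfb1 shows the widest scatter of the 35, with a coefficient of variation of 35.9% over the 12 libraries.

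Several low levels belong to genes with many near-identical copies, whose reads the authors' counting could split or drop, so their levels are uncertain. The share of a gene's coding 31-base words that also occur in transcripts of other genes was 100% for Pgk1 and Pgam1, 94.1% for Gapdh, 81.9% for Eno1 and 77.7% for Pkm. Of the 35 genes, 20 shared at least 1 such word and 10 shared more than 50 percent of them, while 15 shared none, among them Pfkfb1, Pfkp, Pdp1, Slc2a4, Hk1, Hk2, Pgam2 and Eno3. Gapdh, the glyceraldehyde-3-phosphate dehydrogenase often used as a reference gene, measured only 24.2 CPM per kb, and its coding words occurred in 329 other genes, 321 of them with pseudogene transcripts. The 119 counted genes that hold at least 10 percent of its words had 15595 counts, against 6823 for Gapdh itself, or 69.6% of both together. These are counts of whole genes, not of the shared words alone. They include Peli2, a protein-coding gene with 14.8% of the words and 292 to 442 counts per library. Mpc1-ps, a processed pseudogene of the mitochondrial pyruvate carrier subunit Mpc1, took 28.3% of the counts of the pair.

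**Figure D2:**
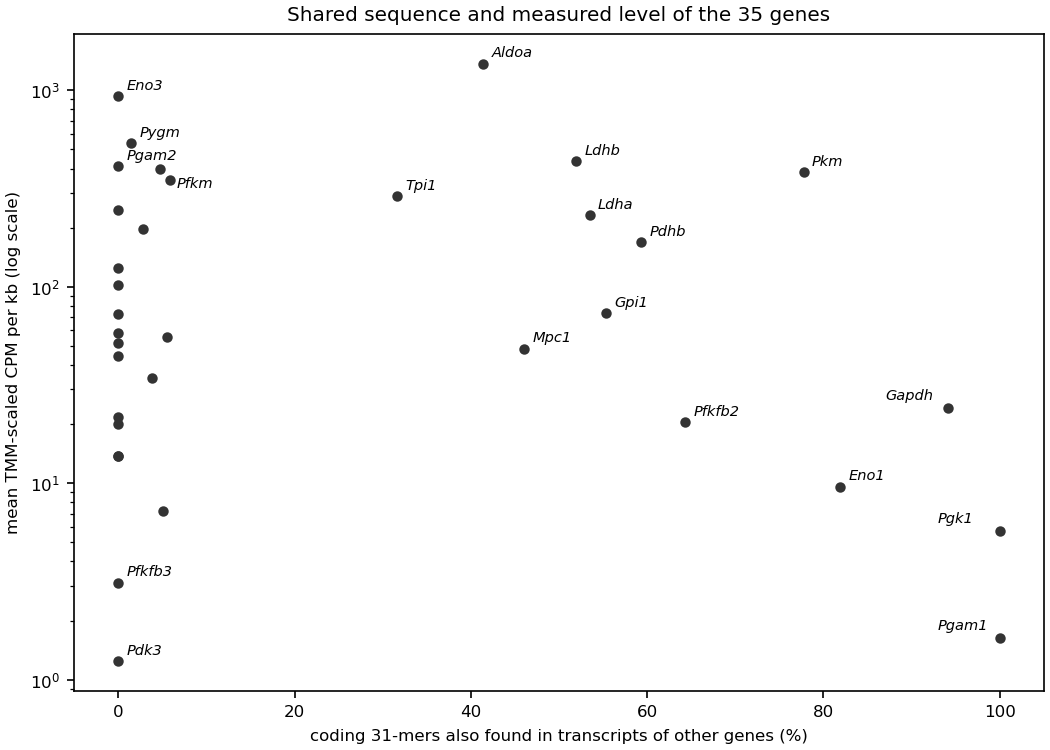
Percent of each gene's coding 31-base words found in transcripts of other genes, against its mean level in TMM-scaled CPM per kb on a log axis, 1 point per gene. Pgk1 and Pgam1 lie at 100% and at 5.72 and 1.63 CPM per kb, and Gapdh at 94.1% and 24.2, whereas Aldoa lies at 41.4% and 1368.

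Some copies were counted in some libraries and nearly absent from others. The Gapdh pseudogene Gm13394, which holds 89.0% of the coding words of Gapdh, had 979 and 858 counts in control LV 2 and control RV 2 and 611 and 844 in the libraries labelled Wnt LOF LV 1 and Wnt LOF RV 1, against 1 to 25 in the other 8 libraries. Gm5514, a processed pseudogene with 52.0% of the Ldhb words, had 145 to 218 counts in control LV 1, LV 3, RV 1 and RV 3 and 6 to 13 in the other 8. Gm1840, a processed pseudogene of the glucose-6-phosphate isomerase Gpi1, had 6 and 15 counts in control LV 3 and control RV 3 and 77 to 118 in the other 10. In these 3 cases both ventricles with the same number and genotype had the same state, and for Gm13394 the control libraries numbered 2 shared it with the Wnt LOF libraries numbered 1. Mpc1-ps went against this, with 13.2 CPM in Wnt LOF LV 2 and 21.8 CPM in Wnt LOF RV 2. The other libraries had 8.17 to 13.4 or 20.3 to 25.7 CPM of it, and among them equal numbers of a genotype had the same state. Within each group, no 2 libraries had the same state of both Gm13394 and the Y-linked Ddx3y. The 3 copies were chosen after their values were seen. Ldhb itself had 488 to 588 CPM in the 4 libraries with Gm5514 and 481 to 656 CPM in the others, so the ranges overlapped. For Eno1 they did not. Eno1b, a protein-coding gene with 79.5% of the Eno1 words, had 0 or 1 counts in control LV 1, control RV 1, Wnt LOF LV 2 and Wnt LOF RV 2. Eno1 had 21.99 to 25.4 CPM in these 4 libraries. In the other 8, Eno1b had 4 to 19 counts and Eno1 had 14.1 to 18.5 CPM. Eno1b was also picked after its values were seen, and its part in the Eno1 level was not tested. Gm5514 had a log2 fold change of -4.12 (p = 0.0246, adjusted p = 0.918) for Wnt LOF against control in the RV in the authors' deposited table.

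No member was called in any comparison, at an adjusted p of 0.05 over all genes tested by edgeR's quasi-likelihood test, and neither was any of the 15494 genes (0%). DESeq2 also called 0 members. The comparisons were Wnt LOF against control in the LV and in the RV, RV against LV in control and in Wnt LOF hearts, and the interaction, which is the RV-LV difference in Wnt LOF minus that in control. In this order, 1, 0, 2, 2 and 0 members had an unadjusted p under 0.05 by edgeR, and 1, 0, 3, 1 and 0 by DESeq2. Over all genes tested by edgeR those shares were 2.85%, 2.7%, 4.89%, 4.81% and 2.01%, so the members' counts lie near the background. Without the libraries labelled Wnt LOF LV 1 and Wnt LOF RV 1 edgeR called 0 members, and 0, 0, 3, 6 and 1 had an unadjusted p under 0.05, against 2.26%, 4.65%, 5.95%, 8.86% and 1.84% of genes.

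The 95% interval of the log2 fold change lay within 2-fold in either direction for 34, 35, 34, 35 and 33 of the 35 members in the same order, against 83.7%, 83.6%, 82.3%, 83.3% and 71.0% of all genes tested. The exceptions were Pfkfb1 in the LV, in control hearts and in the interaction, and Pfkp in the interaction. Median log2 fold changes of the members were -0.05 in the LV, 0.001 in the RV, 0.04 for RV against LV in control, 0.05 for RV against LV in Wnt LOF and 0.06 in the interaction. The medians of all genes lay between -0.004 and 0.005. The Wnt LOF values here include the doubted pair numbered 1. Without it the intervals of 35, 35, 34, 33 and 33 members lay within 2-fold, against 79.0%, 77.8%, 81.5%, 73.4% and 66.4% of genes, and those of Pfkfb1 and Pdk3 for RV against LV in Wnt LOF did not. The members' medians were then -0.04, 0.007, 0.04, 0.09 and 0.03.

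**Figure D3:**
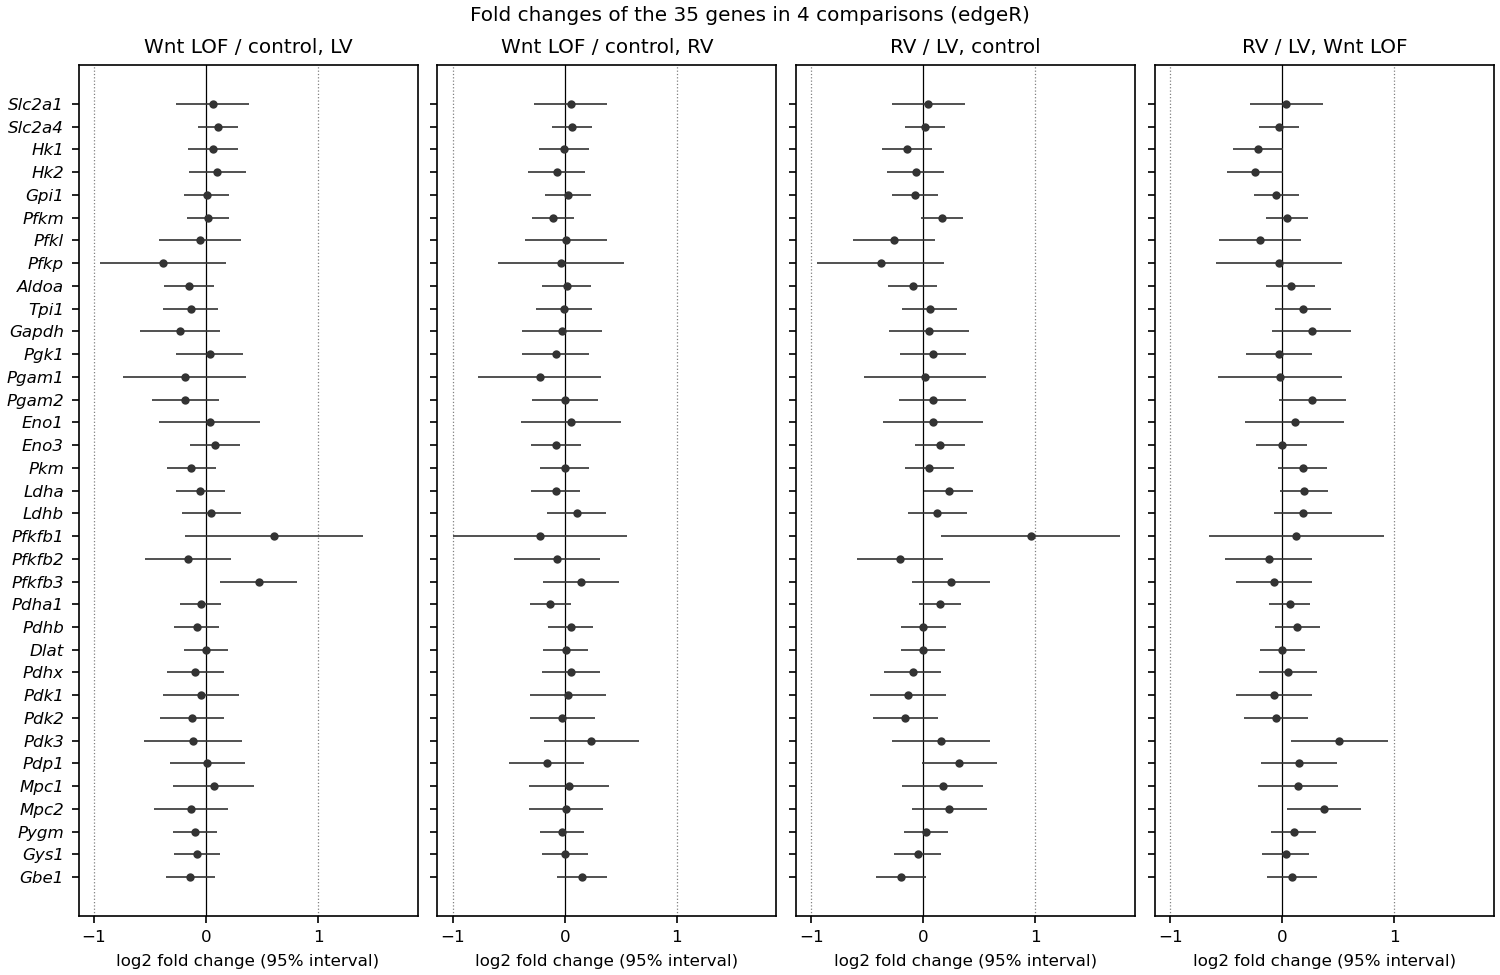
Log2 fold change of each gene with its 95% interval from edgeR in 4 comparisons, with dotted lines at 2-fold. Most intervals span 0 and lie within 2-fold, and Pfkfb1 has the widest, reaching 1.75 for RV against LV in control hearts.

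Pfkfb1 was the member with the largest difference between the ventricles of control hearts. It encodes a bifunctional enzyme that makes and degrades the sugar phosphate which activates phosphofructokinase. Its levels were 12.3, 17.2 and 21.1 CPM in control LV, 29.3, 32.3 and 36.1 in control RV, 38.5, 17.4 and 20.8 in Wnt LOF LV and 15.7, 35.6 and 32.7 in Wnt LOF RV. In control hearts the 3 RV libraries were all above the 3 LV libraries. Among the Wnt LOF libraries numbers 2 and 3 had the same order, while the library labelled Wnt LOF LV 1 was the highest of the 12 and the library labelled Wnt LOF RV 1 was the second lowest, so this pair had the opposite order, as it had for Wif1.

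The RV-LV difference in control hearts was 0.96 on the log2 scale (SE 0.36, edgeR adjusted p = 0.922). It was 1.25, 0.91 and 0.77 for the libraries numbered 1, 2 and 3. With the replicate number as a block in the control libraries alone, which takes the equal numbers as pairs, the edgeR value was 0.97 (SE 0.10) with an adjusted p of 5.8e-05, in a fit that called 2.19% of genes. Without the control pair numbered 2 it was 1.01 (SE 0.13, adjusted p = 0.0191 by edgeR, 0.447% of genes called). In Wnt LOF hearts the edgeR difference was 0.13 (SE 0.35), with -1.30, 1.03 and 0.65 for the 3 pairs. Without the pair numbered 1, and with the block, edgeR gave 0.85 (SE 0.14, adjusted p = 0.0083, 1.6% of genes called). Both fits that leave out a pair rest on the 2 pairs left and were added after the data were seen. The Wnt LOF fit leaves out the pair with the opposite order, so it is no independent repeat of the control difference. Wnt LOF against control gave -0.22 (SE 0.35) in the RV and 0.61 (SE 0.36) in the LV, where it was 0.19 without the library labelled Wnt LOF LV 1. The interaction was -0.83 (SE 0.50) with all libraries and -0.12 without the Wnt LOF pair numbered 1.

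The RefSeq table lists 4 start sites for Pfkfb1 on the plus strand of chromosome X (GRCm38.p6), and counts per gene do not say which was used. Each window holds 300 bases, from upstream of the start to 50 bases after it. The pair shown differ in base composition, with a GC content of 60.3% at chrX:150587993-150588292 (Pfkfb1 window 2) and 45% at chrX:150589666-150589965 (Pfkfb1 window 3). Capitals in window 3 mark the 1 match, on the minus strand, to AAGGTCA, the half-site bound by estrogen-related receptors.
Pfkfb1 window 2: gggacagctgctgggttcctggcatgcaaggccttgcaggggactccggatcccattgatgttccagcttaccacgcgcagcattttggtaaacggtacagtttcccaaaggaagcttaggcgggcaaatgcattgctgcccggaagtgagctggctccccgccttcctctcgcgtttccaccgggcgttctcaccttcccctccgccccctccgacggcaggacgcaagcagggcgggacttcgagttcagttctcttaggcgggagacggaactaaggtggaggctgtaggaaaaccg
Pfkfb1 window 3: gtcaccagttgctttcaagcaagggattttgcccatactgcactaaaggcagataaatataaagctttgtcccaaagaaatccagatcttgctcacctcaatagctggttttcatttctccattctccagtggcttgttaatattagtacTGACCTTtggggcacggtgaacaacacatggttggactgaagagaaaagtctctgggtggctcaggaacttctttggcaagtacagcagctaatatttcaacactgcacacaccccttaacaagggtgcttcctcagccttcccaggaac

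Pfkp, the platelet-type phosphofructokinase, was the other member of this regulatory step with a large ventricle difference in control hearts. Its levels were 105, 78.7 and 119 CPM in control LV, 73.9, 55.7 and 102 in control RV, 54.6, 76.2 and 101 in Wnt LOF LV and 79.9, 66.6 and 80.4 in Wnt LOF RV. The ranges of the groups overlapped, but in each control pair the RV library was lower than the LV library. The log2 differences by number were -0.51, -0.50 and -0.21, and the edgeR value was -0.38 (SE 0.26). With the block in the control libraries alone edgeR gave -0.41 (SE 0.075) with an adjusted p of 0.0090. Without the pair numbered 2 it gave -0.36 (SE 0.084) with an adjusted p of 0.125, so the call was lost. Markers of endothelial cells moved the same way: their 8 genes summed to 1249 to 1339 CPM in control LV and 1106 to 1183 in control RV. Red cell markers moved the other way, with 110 to 139 CPM over 7 genes in control LV and 164 to 248 in control RV. Their part in the lower RV values of Pfkp, Pfkl and Hk1 was not tested. In bulk tissue fewer cells of a type and less RNA per cell cannot be told apart. In the LV, Wnt LOF against control, the edgeR value of Pfkp was -0.39 (SE 0.26), and -0.19 without the library labelled Wnt LOF LV 1. The authors' deposited table gives -0.478 (p = 0.0142, adjusted p = 0.841) for it there.

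Pfkm and the liver-type Pfkl completed the phosphofructokinase family. Pfkm had 1107, 1124 and 1063 CPM in control LV, 1212, 1144 and 1333 in control RV, 1165, 1035 and 1132 in Wnt LOF LV and 1109, 1176 and 1154 in Wnt LOF RV, and the control RV libraries were all higher than the control LV libraries. Its RV-LV difference in control was 0.16 (SE 0.087, edgeR adjusted p = 0.922), and its value for Wnt LOF against control in the RV was -0.10 (SE 0.087). For Pfkl the control difference was -0.26 (SE 0.17), again lower in the RV library of each number. As a share of the counts of the 3 genes, Pfkm made up 77.7% ± 1.74 (SD, n = 3) in control LV and 82.9% ± 1.80 (SD, n = 3) in control RV, with no overlap. The exact permutation test, two-sided, gave p = 0.1, the smallest 3 against 3 libraries can give, and 0.5 after adjustment over 40 share tests.

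Pfkfb3, another form of the bifunctional enzyme, had the smallest unadjusted p of Wnt LOF against control in the LV. Its levels were 10.9, 14.8 and 11.0 CPM in control LV, 14.8, 14.4 and 14.4 in control RV, 21.5, 14.0 and 15.4 in Wnt LOF LV and 16.1, 15.2 and 17.0 in Wnt LOF RV. The LV groups overlapped, since control LV 2 lay above the library labelled Wnt LOF LV 2, and in the RV the Wnt LOF libraries were all higher. The LV value was 0.47 (SE 0.16, edgeR adjusted p = 0.999), and it was 0.26 without the library labelled Wnt LOF LV 1, which had the highest level. Without that library, Wnt LOF RV 1 and control LV 2 it was 0.42. In the RV it was 0.15 (SE 0.16), and the interaction was -0.32 (SE 0.22). The authors' deposited table gives 0.523 (p = 0.00789, adjusted p = 0.841) in the LV. Pfkfb2, the heart form, had log2 fold changes of -0.21 (SE 0.18) or closer to 0 in the 4 comparisons.

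**Figure D4:**
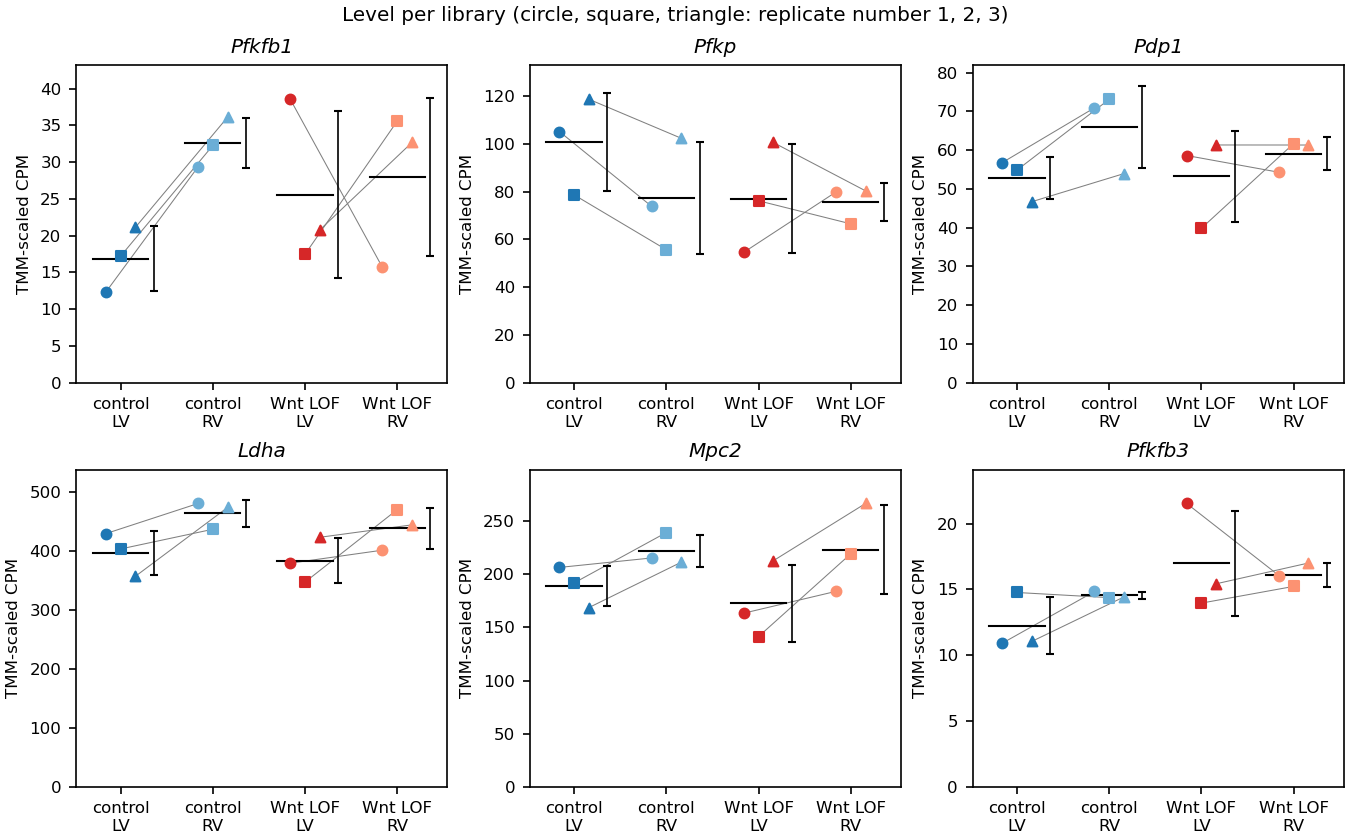
Level in TMM-scaled CPM of 6 genes in the 12 libraries, with marker shapes for the replicate number, horizontal bars for group means, error bars for SD (n = 3) and thin lines joining equal numbers of a genotype. For Pfkfb1 the 3 control lines and the Wnt LOF lines of numbers 2 and 3 run upward from LV to RV, and the Wnt LOF line of number 1 runs from 38.5 down to 15.7 CPM.

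Glucose enters the muscle cell through Slc2a4, the insulin-responsive transporter, and Slc2a1, the basal one. Slc2a4 had 570.2, 623 and 598 CPM in control LV, 617, 556 and 635 in control RV, 669.6, 634 and 625 in Wnt LOF LV and 622, 659 and 610.5 in Wnt LOF RV. It was the only member whose Wnt LOF LV libraries were all above the control LV libraries, and none was all below; 3.95% of genes tested were higher in this way and 3.95% lower. The difference was 0.11 (SE 0.083, edgeR adjusted p = 0.999), and 0.08 (SE 0.096) without the library labelled Wnt LOF LV 1. Without that library Slc2a4 was higher and Pygm lower in this way, as were 7.4% and 7.14% of genes. Slc2a1 had 23.5, 20.6 and 24.5 CPM in control LV, 24.4, 21.9 and 24.2 in control RV, 20.5, 22.1 and 28.7 in Wnt LOF LV and 19.3, 25.2 and 28.8 in Wnt LOF RV, with all ranges overlapping. Slc2a4 made up 95.5% to 97.0% of the counts of the 2 genes in the 12 libraries.

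Hexokinases trap glucose as glucose 6-phosphate. Hk1 had 196, 188 and 207 CPM in control LV, 165, 182 and 187 in control RV, 189.8, 224 and 202 in Wnt LOF LV and 204, 157 and 169.8 in Wnt LOF RV. It was lower in all control RV than in all control LV libraries, by -0.15 on the log2 scale (SE 0.10). Hk2, the main form of adult muscle, had 583, 597 and 533 CPM in control LV, 495, 553 and 584 in control RV, 605, 654 and 578 in Wnt LOF LV and 622, 449.8 and 482 in Wnt LOF RV. In Wnt LOF hearts the RV-LV differences were -0.21 (SE 0.10) for Hk1 and -0.24 (SE 0.12) for Hk2, both with an edgeR adjusted p of 1. Without the Wnt LOF pair numbered 1 they were -0.38 and -0.40. In that pair both genes were higher in the RV library, by 0.11 and 0.04, and in the other pairs they were lower in it. The Hk2 share of the hexokinase counts kept between 72.1% and 76.1% in the 12 libraries.

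In the lower part of glycolysis Aldoa had 2218, 2328 and 2176 CPM in control LV, 2025, 2022 and 2243 in control RV, 1819, 2013 and 2218 in Wnt LOF LV and 2309, 1891 and 2172 in Wnt LOF RV. Its Wnt LOF value in the LV was -0.15 (SE 0.10), and -0.08 without the library labelled Wnt LOF LV 1. Gpi1, Tpi1 (triose phosphate isomerase), Gapdh, Pgk1, Pgam1, Pgam2, Eno1, Eno3 and Pkm had log2 fold changes between -0.24 and 0.27 in the 4 group comparisons, and none had an unadjusted p under 0.05 by edgeR. Pgam2 was given as -0.245 (p = 0.047, adjusted p = 0.841) in the LV in the authors' deposited table, where edgeR here gave -0.18 (SE 0.14). Pgam2 took 98.9% to 99.5% of the phosphoglycerate mutase counts and Eno3 98.2% to 98.9% of the enolase counts, and those of Pgam1 and Eno1 are uncertain because of their copies.

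Lactate dehydrogenase converts pyruvate and lactate into each other, and Ldha encodes its muscle-type subunit. Ldha had 429, 403 and 357 CPM in control LV, 480.3, 437 and 474 in control RV, 379, 347 and 423 in Wnt LOF LV and 401, 469.9 and 444 in Wnt LOF RV. All control RV libraries were above all control LV libraries, and the difference was 0.23 (SE 0.10, edgeR adjusted p = 0.922). In Wnt LOF hearts it was 0.19 (SE 0.10), by 0.08, 0.44 and 0.07 for the 3 numbers, and 0.25 (SE 0.12) without the pair numbered 1, whose labels are in doubt. Ldhb had 536, 569 and 488 CPM in control LV, 515, 634 and 588 in control RV, 509.9, 481 and 656 in Wnt LOF LV and 576, 641 and 655 in Wnt LOF RV, with overlapping ranges. Its share of the counts of both subunits was 55.5% ± 3.73 (SD, n = 3) in control RV and 58.7% ± 0.962 (SD, n = 3) in Wnt LOF RV, and the groups overlapped.

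The first RefSeq start site of Ldha, at chr7:46845554-46845853 on the plus strand of GRCm38.p6, is shown because it holds CACGTG, the E-box core, and ACGTG, the core of the hypoxia response element. CACGTG reads the same on both strands, so each CACGTG also holds ACGTG on both. Capitals mark the matches on either strand, and CACGT is ACGTG on the minus strand.
Ldha window 1: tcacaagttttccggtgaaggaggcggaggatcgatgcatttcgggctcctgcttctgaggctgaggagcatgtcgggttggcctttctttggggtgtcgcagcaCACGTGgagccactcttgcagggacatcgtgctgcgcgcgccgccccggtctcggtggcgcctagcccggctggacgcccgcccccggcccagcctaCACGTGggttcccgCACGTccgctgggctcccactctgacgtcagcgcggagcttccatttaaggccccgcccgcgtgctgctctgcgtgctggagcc

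Of the 33 members matched in the promoter table, 16 (48.5%) held ACGTG on either strand in a window, against 21.8% of all 27025 genes in it, and 5 (15.2%) held CACGTG, against 8.09%. CTTTGAT, the TCF/LEF core of Wnt targets, was in 0 windows of the members and in those of 4.29% of all genes. AAGGTCA was found for Eno1, Pfkfb1 and Tpi1 (9.09%, against 5.38%), and the longer TCAAGGTCA, which contains it, for no member (0.466% of all genes). A match is a description of these letters, and genes with several windows had more chances of one. Slc2a4 and Pdp1 were not matched.

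Pyruvate enters mitochondria through Mpc1 and Mpc2. Mpc2 had 206, 192 and 169 CPM in control LV, 215, 239 and 211 in control RV, 163, 141 and 213 in Wnt LOF LV and 184, 219 and 267 in Wnt LOF RV. As labelled, the RV library was higher in all 6 pairs. They include the Wnt LOF pair numbered 1 (0.17), whose labels are in doubt. The differences were 0.23 (SE 0.15) in control, where the groups did not overlap, and 0.37 (SE 0.15, edgeR adjusted p = 1) in Wnt LOF, where they did. Without the Wnt LOF pair numbered 1 the latter was 0.46. Without the library labelled Wnt LOF RV 3 it was 0.22, and without the library labelled Wnt LOF LV 3 it was 0.54.

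The pyruvate dehydrogenase complex is built from Pdha1 and Pdhb, the subunits of its first enzyme, Dlat, its acetyltransferase core, and Pdhx, a binding component. Pdha1 had 986, 1034 and 899 CPM in control LV, 1104, 1038 and 1089 in control RV, 952, 873 and 997 in Wnt LOF LV and 992, 1000.04 and 963 in Wnt LOF RV. The control RV libraries were above both the control LV and the Wnt LOF RV libraries, which share them, with differences of 0.15 (SE 0.086) for RV against LV and -0.13 (SE 0.086) for Wnt LOF against control. Pdhb, Dlat and Pdhx had log2 fold changes from -0.10 to 0.14 in the 4 group comparisons.

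The complex is switched off by the kinases Pdk1 to Pdk4 and on by phosphatases such as Pdp1. Pdp1 had 56.8, 54.8 and 46.7 CPM in control LV, 70.9, 73.1 and 53.9 in control RV, 58.6, 39.8 and 61.3 in Wnt LOF LV and 54.3, 61.7 and 61.3 in Wnt LOF RV. The control difference was 0.32 (SE 0.16, edgeR adjusted p = 0.922), by 0.32, 0.42 and 0.21 for the 3 numbers. With the block in the control libraries alone it was 0.32 (SE 0.073) with an edgeR adjusted p of 0.034, and 0.27 (SE 0.077) with an adjusted p of 0.205, no longer called, without the pair numbered 2. Pdk3 was the least abundant kinase, with 2.42, 2.21 and 2.65 CPM in control LV, 2.45, 2.65 and 3.00 in control RV, 2.31, 1.71 and 2.64 in Wnt LOF LV and 3.05, 3.61 and 2.88 in Wnt LOF RV. Its RV-LV difference in Wnt LOF was 0.51 (SE 0.20, edgeR adjusted p = 1) with groups that did not overlap, 0.57 without the pair numbered 1, and 0.36 without the library labelled Wnt LOF LV 2. For Wnt LOF against control in the RV Pdk3 had 0.24 (SE 0.20), and the interaction was 0.35 (SE 0.29).

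Pdk1 and Pdk2 were read beside Pdk4, a fasting-responsive kinase outside the 35 genes. Pdk1 had 288, 368 and 299 CPM in control LV, 265, 324 and 278 in control RV, 339, 285 and 304 in Wnt LOF LV and 376, 234 and 272 in Wnt LOF RV. Pdk2 had 171, 167 and 193 CPM in control LV, 146, 161 and 168 in control RV, 170.1, 174 and 143 in Wnt LOF LV and 179, 120.2 and 169.5 in Wnt LOF RV. The ranges of both genes overlapped in each comparison, with log2 fold changes between -0.16 and 0.03. Without the library labelled Wnt LOF RV 1, Pdk1 had -0.19 (SE 0.13) for Wnt LOF against control in the RV, in place of 0.03. Their shares of the 4 kinases' counts depend by construction on the level of Pdk4. Pdk1 made up 29.7% ± 3.56 (SD, n = 3) in control LV, 19.8% ± 4.04 (SD, n = 3) in control RV and 32.6% ± 6.70 (SD, n = 3) in Wnt LOF RV, and Pdk4 made up 53.5% ± 3.37, 69.2% ± 5.88 and 49.7% ± 8.64 in the same groups. Control RV did not overlap either of the others in these shares, and both comparisons use the same control RV libraries. By the exact permutation test each had p = 0.1 and 0.5 adjusted over the 40 share tests, of which 0 passed and 8 had groups without overlap. Within Wnt LOF the Pdk4 share was 59.9% in the library labelled LV 1 and 40.3% in the library labelled RV 1, but 39.2% and 41.0% in the other LV and 57.2% and 51.8% in the other RV libraries.

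**Figure D5:**
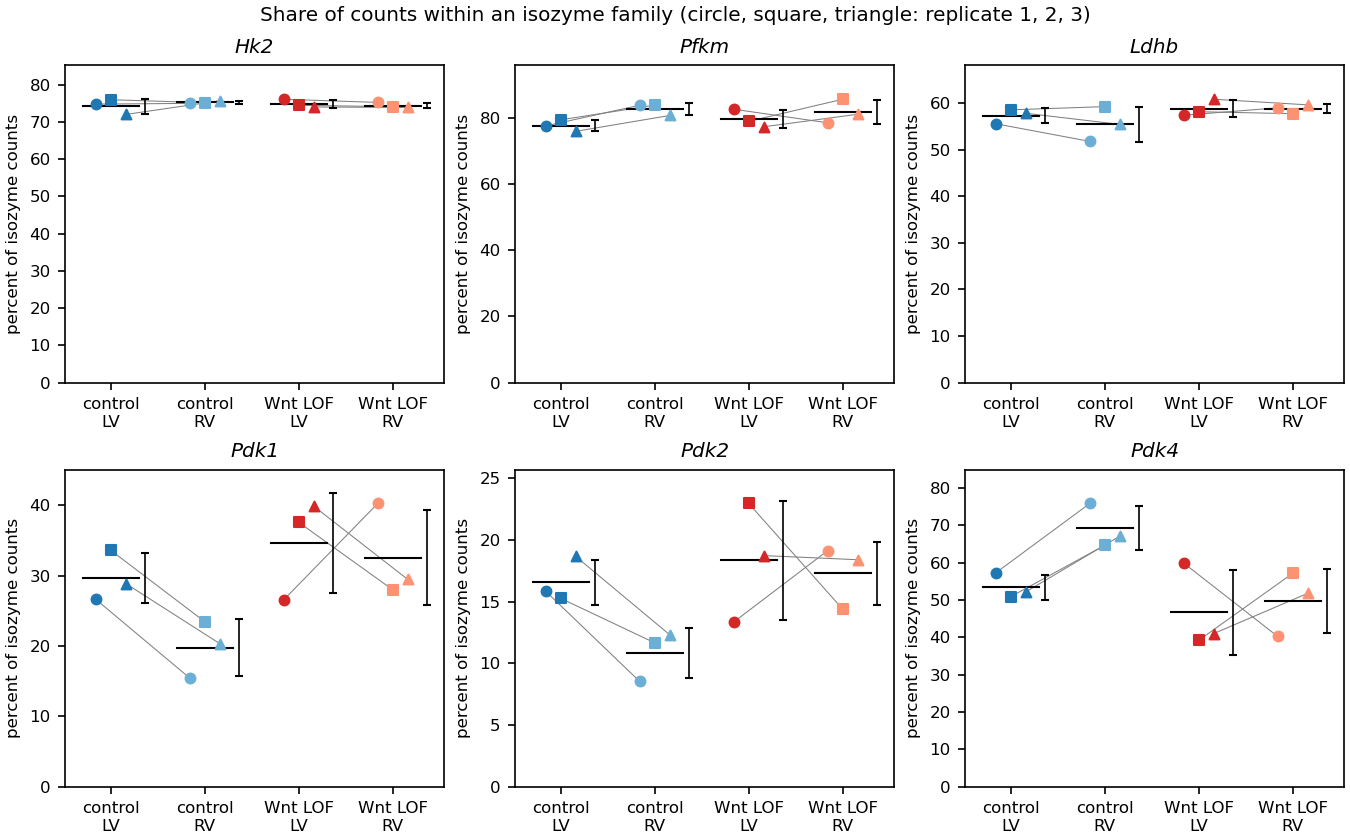
Share of counts within an isozyme family, in percent, for 6 genes in the 12 libraries, with shapes for the replicate number, bars for the group mean, error bars for SD (n = 3) and thin lines joining equal numbers. The Hk2 share stays between 72.1% and 76.1%, while the Pdk4 share runs from 39.2% to 75.9%.

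Glycogen is built by Gys1, the muscle glycogen synthase, and the branching enzyme Gbe1, and broken down by Pygm. Gys1 had 123, 127 and 139 CPM in control LV, 122, 111 and 142 in control RV, 121, 126 and 119.8 in Wnt LOF LV and 115, 135 and 125 in Wnt LOF RV. Pygm had 1475, 1625 and 1598 CPM in control LV, 1593, 1526 and 1663 in control RV, 1532, 1471 and 1388 in Wnt LOF LV and 1509, 1735 and 1465 in Wnt LOF RV. Both had log2 fold changes between -0.10 and 0.10 in the 4 group comparisons, with overlapping ranges. Gbe1 had 76.99, 81.8 and 71.0 CPM in control LV, 73.6, 60.1 and 66.0 in control RV, 70.0, 66.9 and 71.7 in Wnt LOF LV and 85.0, 67.5 and 69.3 in Wnt LOF RV. Its difference between the ventricles was -0.20 (SE 0.10) in control and 0.09 (SE 0.10) in Wnt LOF, and the interaction, 0.29 (SE 0.15, edgeR adjusted p = 1), had the smallest unadjusted p of the members. Without the library labelled Wnt LOF RV 1 the interaction was 0.17, and the control difference was -0.09 in the blocked fit that left out number 2. In the RV, Wnt LOF against control, Gbe1 had 0.15 (SE 0.10), and 0.04 without that library.

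Counted by groups that did not overlap, 1 member was higher and 1 lower in the RV of Wnt LOF than of control hearts (Pfkfb3 and Pdha1), where 3.61% and 3.94% of all genes did so. Without the library labelled Wnt LOF RV 1 the counts were 4 (Slc2a1, Gapdh and Ldhb beside Pfkfb3) and 3 (Hk2 and Pfkfb2 beside Pdha1), against 10.3% and 10.4%. The 8 smooth muscle and pericyte markers summed to 1935 to 2034 CPM in control RV and 2114 to 2397 CPM in Wnt LOF RV. Abcc9 (743 to 999.5 CPM over the 12 libraries) and Rgs5 (697 to 905 CPM) made up the largest parts of these sums. Myh11, Tagln and Cnn1 had only 55.0 to 92.3, 14.9 to 39.5 and 1.44 to 4.37 CPM. The part of these markers in the counts by overlap was not tested. In control hearts 5 members were higher in the RV (Pfkfb1, Mpc2, Pdha1, Pfkm and Ldha) and 1 lower (Hk1), against 6.68% and 5.92% of all genes. Without control LV 2 these counts were 6 and 4, against 11.5% and 11.6%. Beside these, the red cell marker sums given above were higher in all control RV libraries, and 7 markers of Schwann cells and neurons summed to 15.03 to 15.3 CPM in control LV and 15.5 to 25.6 CPM in control RV. The part of both in the 5 higher members was not tested.

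In Wnt LOF hearts 1 member was higher in all RV libraries (Pdk3) and 0 lower, against 3.36% and 3.7% of genes. Without the pair numbered 1, 7 were higher (Pfkm, Gapdh, Pkm, Ldha, Pfkfb1, Pdk3 and Mpc2) and 5 lower (Hk1, Hk2, Pfkl, Pfkfb2 and Pdk1), against 17.9% and 18.9%. Counted by pairs, 7 members were higher and 6 lower in the RV library of all 3 control pairs, where 17.4% and 18.1% of genes did so. In Wnt LOF 9 were higher and 0 lower, against 14.6% and 12.5%, but these counts rest on the order of the pair numbered 1 as labelled. In the other pairs 15 were higher and 7 lower, against 30.2% and 30.6%, and of the 7 lower ones 0 were lower in the pair numbered 1. The summed ventricular muscle markers had 163516, 170107 and 161198 CPM in Wnt LOF LV and 175416, 182045 and 173102 CPM in Wnt LOF RV. As labelled the groups did not overlap, also without number 1, whose RV value was the higher one. Ttn (78842 to 93237 CPM over the 12 libraries) and Myh6 (33745 to 39633 CPM) made up the largest parts of these sums. Of the 11 markers, 10 had a log2 fold change above 0 for RV against LV in Wnt LOF and 1 below. The part of the ventricular muscle markers in these counts was not tested.

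Of 54 further genes of uptake, glycolysis, lactate, pyruvate and glycogen metabolism that were tested, 0 were called in any comparison by edgeR. In the order above, 1, 4, 5, 1 and 1 of the 54 had an unadjusted p under 0.05. Over all genes tested these shares were 2.85%, 2.7%, 4.89%, 4.81% and 2.01%. Pdk4 had the smallest unadjusted p of the 54 genes, for Wnt LOF against control in the RV. Its levels were 1299, 894 and 917 CPM in control RV and 376, 478 and 477 CPM in Wnt LOF RV, all lower in Wnt LOF, with a log2 fold change of -1.22 (SE 0.32, edgeR adjusted p = 1), and -1.12 (SE 0.15, edgeR adjusted p = 0.0821) without the libraries labelled Wnt LOF LV 1 and Wnt LOF RV 1. In the LV Pdk4 had 619, 557 and 541 CPM in control and 763, 297 and 313 CPM in Wnt LOF. There only the library labelled Wnt LOF LV 1 was not below the control libraries. Slc16a1, a lactate transporter, had -0.25 (SE 0.083) for Wnt LOF against control in the RV. Its levels were 497, 493 and 484 CPM in control RV and 412, 426 and 399 CPM in Wnt LOF RV. Without the libraries labelled Wnt LOF LV 1 and Wnt LOF RV 1 the Slc16a1 value was -0.25 (SE 0.097). Gpt, an alanine aminotransferase, had 52.0, 56.6 and 43.9 CPM in control LV and 61.0, 65.3 and 70.4 CPM in control RV, all higher in the RV, with a difference of 0.37 (SE 0.11, edgeR adjusted p = 0.922). Of the 18 tested regulators of glucose metabolism edgeR called 0 in the 5 comparisons. An unadjusted p under 0.05 was found for 1, 1, 0, 1 and 0 of them, against the same shares of all genes.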

How the data were processed

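RNA was sequenced from 12 heart ventricle libraries. The authors deposited raw counts per Ensembl gene, made with featureCounts of Subread per the submitters' processing notes, which also name edgeR. The aligner, versions, genome build, annotation, strand setting and treatment of shared reads were not given in the sources used here. The authors also deposited 2 comparison tables holding log2 fold changes, p-values and adjusted p-values. Of 41192 rows, 598 repeats of a gene were left out, leaving 40594 genes. Groups came from the titles.

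Counts were fitted in R 4.3.3 with edgeR 4.0.16 (robust quasi-likelihood, 1 mean per group, all 12 libraries, filterByExpr, TMM factors 0.961 to 1.04, Benjamini-Hochberg over 15494 genes, threshold 0.05). CPM are TMM-scaled. DESeq2 1.42.0 was an alternative, with limma 3.58.1 loaded by edgeR. The fit was tested on simulated counts. Isozyme shares were compared by exact permutation tests, two-sided. Coding lengths and 31-base words came from GENCODE M21, which may not be the authors' annotation, and promoters from RefSeq (GRCm38.p6).

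Equal replicate numbers were taken to pair the ventricles of a genotype, since the correlations of deviations from the group means all exceeded 0.1 (0.411, 0.29 and 0.517 in control, 0.191, 0.197 and 0.594 in Wnt LOF). This pairing comes from the data, not from the labels. Wnt LOF LV 1 correlated slightly more with Wnt LOF RV 2 (0.201) than with its own number. Wnt LOF LV 2 and Wnt LOF RV 1 also exceeded 0.1 (0.133), so these correlations do not tell the Wnt LOF numbers 1 and 2 apart. The Gm13394 counts given above differ between these numbers, but that copy was chosen after its values were seen. The Mpc1-ps level given above differed between Wnt LOF LV 2 and Wnt LOF RV 2. Between genotypes the numbers did not pair. Members shown with every library were those with an unadjusted p under 0.05 in a comparison, or the 4 smallest, and 11 fixed genes. Further pathway genes were named only at an unadjusted p under 0.01. The members and lists were chosen with earlier results of these data known.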

Additional observations from a re-analysis of the deposited data

How the results depend on the processing

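Each count of called members was recomputed with other size factors, other filters, DESeq2, the compared groups alone, a replicate block, a term for Y-linked reads and without single or doubted libraries. It stayed at 0 except in 3 fits with the replicate block and the compared groups alone. Control hearts then gave 3 called members (Pfkfb1, Pfkp and Pdp1), and 1 (Pfkfb1) without the control pair numbered 2, and Wnt LOF hearts gave 1 (Pfkfb1) without the pair numbered 1. The fits without a pair, and the counts by overlap and by pairs without the doubted libraries, were added after the data were seen. The replicate block with all 12 libraries called 0 members, as did pairing by number between genotypes (smallest adjusted p = 0.999 in the LV by edgeR). The isozyme shares gave 0 passing tests in every setting run. With 3 libraries a group, and 2 after leaving one out, these share tests could not pass, so their 0 says nothing about stability. No named fold change that exceeded its standard error changed sign.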
